A study of Lotus japonicus with 36 samples.

Results

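The transcript model Lj2g3v3373110.1 of Lotus japonicus, the gene known as NIN (NODULE INCEPTION), was followed day by day in mature root nodules that were given nitrate and then deprived of it. It was chosen by its ID, and it is the only model of its locus, 1 of 50526 models in the deposited tables. The tables carry IDs without gene names, so the name rests on the published use of this ID and not on the files.

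The samples were root nodules of the accession MG-20. Group T0 was untreated and was taken 4 weeks after inoculation. Nodules of T1 to T6 had received 10 mM KNO3 for 1 to 6 days. From nodules of R1 to R5 the KNO3 had been removed for 1 to 5 days. Each of the 12 groups holds 3 libraries, which the series describes as biological replicates. No untreated nodules of a later age are among the groups, so age and time on nitrate cannot be told apart. The labels do not state after how many nitrate days it was removed.

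NIN is a transcription factor with an RWP-RK DNA-binding domain and a PB1 domain, related to the NIN-like proteins that act in nitrate responses throughout plants. It is required for the entry of rhizobia through infection threads and for the cell divisions that form a nodule, and it acts downstream of the calcium signalling pathway that CYCLOPS serves. Among its known targets in Lotus are subunits of the transcription factor NF-Y and the CLE-RS peptide genes, whose products act through the shoot to limit the number of nodules. Nitrate is long known to inhibit nodule formation and the activity of formed nodules, and NIN-like proteins take part in that inhibition in Lotus.

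Other rows of the count table followed the count of NIN closely, which bears on every value below. The row Lj2g3v3373100.1, next to NIN in ID order, differed from the NIN row by at most 3.5 counts in any of the 36 libraries. Another pair of rows, Lj0g3v0358659.1 and Lj0g3v0358669.1, carries IDs with the prefix that this naming scheme uses for sequence not placed on a chromosome. Their counts had a median ratio to the NIN count of 0.981 and 0.980.

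The lengths implied by counts and FPKM matched across these pairs rather than within them. NIN came to 2892 bp and Lj0g3v0358669.1 to 2892 bp, while Lj2g3v3373100.1 and Lj0g3v0358659.1 came to 2965 bp each. The NIN counts were multiples of 0.25 reads in 32 of 36 libraries (4 times the count was whole to within 0.001). The same held in 32 libraries for Lj2g3v3373100.1 and in 34 for each row of the unplaced pair. The share over all models was not counted. The rows with nearly the same counts as each other thus differ in length, the rows of the same length differ in count, and whether the 4 are models of 1 gene cannot be told from these tables. Rows as alike as NIN and Lj2g3v3373100.1 were uncommon, since 245 of 25522 models with a mean of at least 100 counts and no 0 (0.96%) had a model of another locus within 1% of their count in every library. That count does not measure looser likeness, such as that with the unplaced pair, and 49.6% of all values in the count table were not whole.

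The count of the unplaced pair relative to that of NIN was even in most libraries. In 31 libraries the count of Lj0g3v0358669.1 was between 97.5% and 98.5% of the NIN count. In the other 5 it was lower. It stood at 81.6% in T1 replicate 1, 83.9% in R3 replicate 1, 86.7% in R2 replicate 2, 90.0% in T5 replicate 2 and 91.5% in T6 replicate 3. These 5 libraries fall in 5 different groups, and the other 7 groups, T0 among them, hold none. The share of all counts on models with the unplaced prefix overlapped between the 5 libraries (21.2% to 24.3%) and the others (20.0% to 24.1%). Results for NIN are therefore given for its own row. The summed count of the 4 rows would not depend on how any shared reads were divided among them. This sum is set beside results that turn on such a division.

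**Figure D1:**
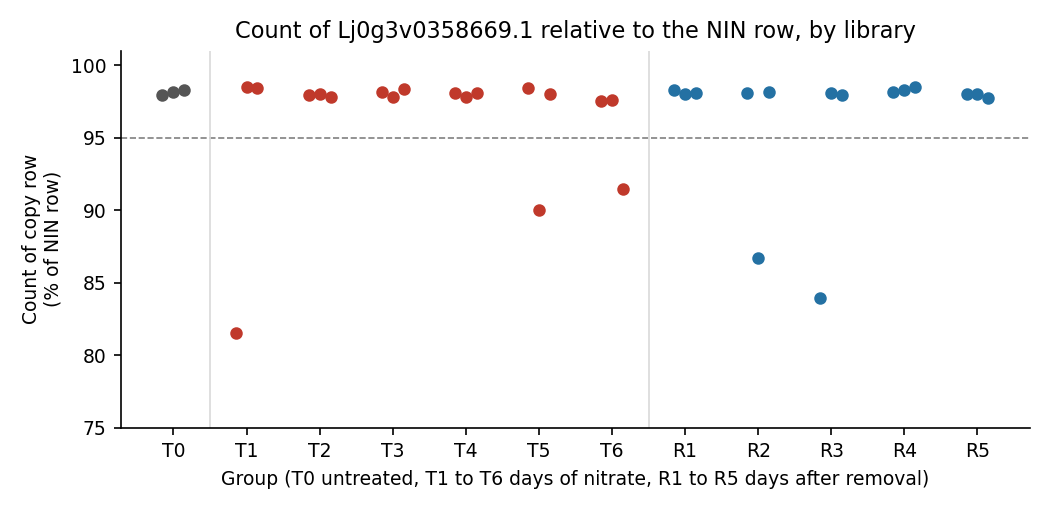
Count of the unplaced row Lj0g3v0358669.1 as a percentage of the count of the NIN row (vertical axis, starting at 75%) in each of the 36 libraries, by group (horizontal axis); each point is 1 library and the dashed line marks 95%. In 31 libraries the points lie between 97.5% and 98.5%, and 5 libraries in T1, T5, T6, R2 and R3 lie between 81.6% and 91.5%.

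NIN was clearly expressed in every group. Its deposited FPKM, a level per length, ran from 9.91 to 44.6 over the 36 libraries, and its group mean exceeded that of 79.9% (T5) to 90.6% (T0) of the 50475 models tested. Of these models 33591 averaged 1 CPM or more, so models of low expression raise these shares. Its counts ran from 1035 to 5358 per library, out of library totals of 34194054 to 45795038. Levels below are CPM, counts scaled to the TMM-adjusted size of the library and so a share of its RNA. Whole nodules were sampled, so fewer cells with NIN transcripts and fewer transcripts per cell cannot be told apart.

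Untreated nodules held NIN at 86.9, 93.7 and 104.7 CPM, a mean of 95.1 ± 8.95 CPM (SD, n = 3). The sum of the 4 rows was 389 ± 38.5 CPM in the same libraries. It comes from a separate fit with its own TMM factors. In the fit of single rows the T0 means of the 4 rows were 95.1, 95.1, 93.4 and 93.4 CPM, which add up to less. Values of the sum, here and below, thus differ from those of the NIN row partly by these factors.

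The first 3 nitrate days brought no detectable change of NIN. The T1 libraries were at 70.3, 89.9 and 75.4 CPM, the T2 libraries at 98.2, 88.2 and 74.9 CPM, and the T3 libraries at 106.4, 91.9 and 80.6 CPM. All 3 groups overlapped T0, and their means were 78.5 ± 10.2, 87.1 ± 11.7 and 93.0 ± 12.9 CPM. Against T0 the log2 fold changes were -0.28 (95% interval -0.65 to 0.10) on day 1, -0.13 (-0.50 to 0.25) on day 2 and -0.03 (-0.41 to 0.34) on day 3. The edgeR adjusted p was 0.419, 0.63 and 0.905. Over the same days the share of all tested models that passed the test in either direction went from 8.29% on day 1 to 36.3% on day 2 and 41.8% on day 3, so NIN was not among the models that had passed by then. A model passes where edgeR's quasi-likelihood test, adjusted after Benjamini and Hochberg over all 50475 models, gives p under 0.05. The steps from T1 to T2 (log2 change 0.15, edgeR adjusted p = 0.654, with 14.8% of all models passing) and from T2 to T3 (0.09, edgeR adjusted p = 0.834, with 8.12% passing) did not pass.

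Day 4 was the first on which NIN passed, at a small change. The T4 libraries were at 58.7, 65.8 and 80.7 CPM, all below the lowest T0 library. The mean of 68.4 ± 11.2 CPM was 71.9% of that of T0, a log2 change of -0.48 ± 0.19 (SE, edgeR adjusted p = 0.0317), on a day when 53.1% of all models passed in either direction. This call was lost when some single libraries were left out, which also leaves fewer libraries in a group. The log2 change was -0.44 without T0 replicate 3 (edgeR adjusted p = 0.0756) and -0.38 without T4 replicate 1 (edgeR adjusted p = 0.135). It was -0.45 without T4 replicate 2 (edgeR adjusted p = 0.0821). Limma on the deposited FPKM gave -0.35 (adjusted p = 0.158). With the 4 rows summed the change was -0.52 (edgeR adjusted p = 0.0217). The T4 call held with RLE factors (edgeR adjusted p = 0.0149) and by DESeq2 (adjusted p = 0.00974). It also held in a fit of T4 and T0 alone (edgeR adjusted p = 0.0172). The step from T3 to T4 did not pass (log2 change -0.44 ± 0.18, edgeR adjusted p = 0.205, with 3.53% of all models passing).

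The main fall came between day 4 and day 5. The T5 libraries were at 37.8, 38.1 and 42.1 CPM, close to each other and below every library of T0 to T4. The mean of 39.3 ± 2.41 CPM was 41.4% of the T0 mean and the lowest of the 12 groups. Against T4 the log2 fold change was -0.80 ± 0.19 (SE, edgeR adjusted p = 0.00447), and 4.71% of all models were lower in T5 than in T4 by the same test. Only 8.52% of the tested models had a lower log2 fold change at this step. Against T0 it was -1.27 ± 0.19 (SE, edgeR adjusted p = 1.38e-06), with 25.4% of all models lower and a median over all models of 0.13. With the 4 rows summed, the value fell from 389 ± 38.5 CPM in T0 to 150 ± 12.1 CPM in T5, a log2 change of -1.37 (edgeR adjusted p = 5.86e-07).

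NIN remained low on nitrate day 6. The T6 libraries were at 60.6, 34.2 and 46.8 CPM, a wider spread than on day 5, and T6 replicate 1 lay within the range of T4. The mean of 47.2 ± 13.2 CPM was 49.6% of the T0 mean (log2 fold change -1.01 ± 0.19, edgeR adjusted p = 3.35e-05), on a day when 28.3% of all models were lower than in T0. All T6 libraries lay below all T0 libraries (two-sided exact permutation p = 0.1, which is as small as 3 against 3 libraries can give). T6 did not differ detectably from T5 (log2 fold change 0.26, 95% interval -0.12 to 0.64, edgeR adjusted p = 0.432, with 8.10% of all models passing). In deposited FPKM the group means were nearly level, at 13.76 ± 2.02 in T5 and 13.82 ± 3.59 in T6, and the difference averaged on the log2(FPKM + 1) scale was -0.01.

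**Figure D2:**
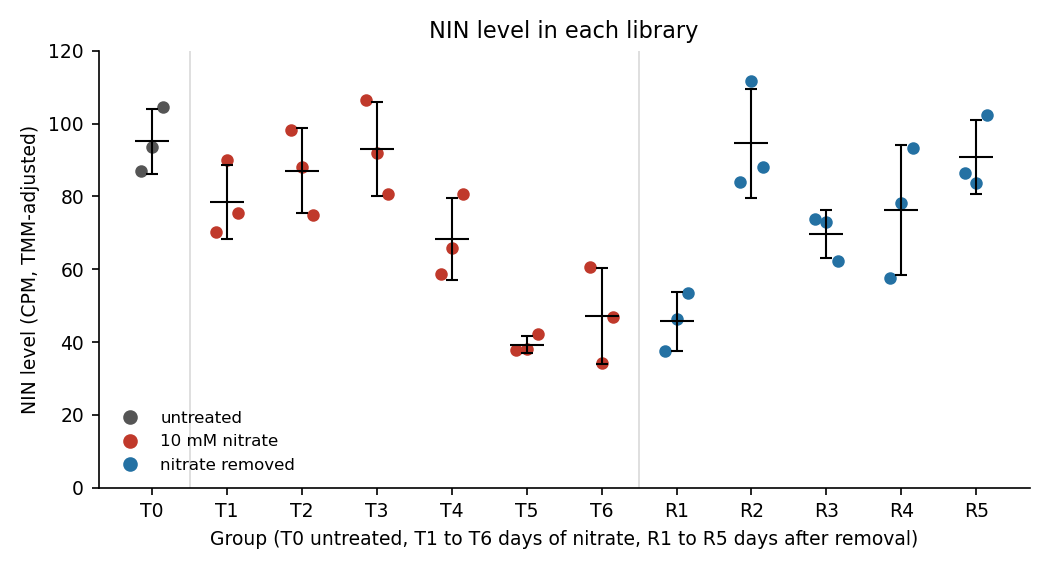
NIN level in CPM with TMM-adjusted library sizes (vertical axis, from 0) in the 36 libraries by group (horizontal axis); points are libraries, horizontal bars are group means and error bars are SD (n = 3). T5, T6 and R1 lie between 34.2 and 60.6 CPM, and of the 27 libraries of the other groups 2 (1 of T4 and 1 of R4) fall within that range.

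Summarised as a straight line over T0 to T6, NIN changed by -0.20 ± 0.04 per day on the log2 scale (SE, 21 libraries, edgeR adjusted p = 7.88e-05). In that fit 31.1% of 49109 models were lower with day and 30.1% higher. The line is a simplification, since the levels above show little change to day 3 and a step from day 4 to day 5.

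After 1 day without nitrate NIN was at a low level. T6, the last nitrate day sampled, is the comparison here, but the labels do not state that removal followed it. The R1 libraries were at 37.4, 46.2 and 53.4 CPM, within the range of the T6 libraries. The mean of 45.7 ± 8.01 CPM did not differ detectably from T6 (log2 fold change -0.05, 95% interval -0.43 to 0.33, edgeR adjusted p = 0.967), and 0.830% of all models passed in either direction between these groups. Against T0, R1 was lower (log2 fold change -1.06 ± 0.19, edgeR adjusted p = 2e-05, with 26.4% of all models lower).

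The return of NIN came between removal days 1 and 2. The R2 libraries were at 84.1, 111.7 and 88.0 CPM, all above every library of R1, T5 and T6. The mean rose from 45.7 ± 8.01 to 94.6 ± 14.9 CPM, or 2.07-fold (log2 fold change 1.05 ± 0.19, edgeR adjusted p = 0.000337), a step at which 6.90% of all models were higher. The log2 fold change of NIN exceeded that of 91.2% of the tested models. Against T6 the change was 1.00 ± 0.19 (edgeR adjusted p = 0.000203, with 12.1% of all models higher). R2 replicate 2, the highest of all 36 libraries, is among the 5 in which the unplaced rows had a lower count relative to NIN. Without those 5 libraries R2 was still above R1 (log2 fold change 0.94, edgeR adjusted p = 0.00678), and with the 4 rows summed the change was 1.06 (edgeR adjusted p = 0.000357).

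On removal day 2 the mean of NIN stood at 99.4% of that of untreated nodules. The log2 fold change of R2 against T0 was -0.01, with a 95% interval of -0.39 to 0.37 (edgeR adjusted p = 0.978), while 44.2% of all models passed in either direction between R2 and T0. With the 4 rows summed the R2 mean was 365 ± 42.5 CPM beside 389 ± 38.5 CPM in T0 (log2 fold change -0.09, edgeR adjusted p = 0.736).

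The later removal days lay between the low and the untreated level. The R3 libraries were at 73.9, 73.1 and 62.2 CPM (mean 69.7 ± 6.52 CPM), the R4 libraries at 57.6, 78.1 and 93.2 CPM (76.3 ± 17.9 CPM) and the R5 libraries at 86.5, 83.7 and 102.3 CPM (90.8 ± 10.0 CPM). R3 lay below all T0 libraries, R4 spread from just below the T4 range into the T0 range, and R5 overlapped T0.

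None of the steps between these days passed the test. The difference of R3 from R2 was -0.44 ± 0.18 on the log2 scale (edgeR adjusted p = 0.342, with 1.57% of all models passing in either direction). R4 differed from R3 by 0.13 (edgeR adjusted p = 0.681, with 19.7% passing) and R5 from R4 by 0.25 (edgeR adjusted p = 0.439, with 8.49% passing). Over R1 to R5 a straight line gave 0.15 ± 0.07 per day on the log2 scale (SE, 15 libraries), which did not pass (edgeR adjusted p = 0.0834, with 40.3% of 46817 models passing in either direction).

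Against T6, NIN was higher on each of the last 4 removal days. The log2 fold change was 0.56 ± 0.19 in R3 (edgeR adjusted p = 0.0289), 0.69 ± 0.19 in R4 (edgeR adjusted p = 0.0036) and 0.94 ± 0.19 in R5 (edgeR adjusted p = 0.000122). The shares of all models higher than in T6 were 12.1% in R3, 22.1% in R4 and 24.6% in R5. All R5 libraries lay above all T6 libraries (two-sided exact permutation p = 0.1, the smallest possible). The R3 call was lost when some single libraries were left out, which also leaves fewer libraries in a group. The log2 fold change was 0.39 without T6 replicate 2 (edgeR adjusted p = 0.171) and 0.57 without T6 replicate 3 (edgeR adjusted p = 0.0611). It was 0.50 without R3 replicate 1 (edgeR adjusted p = 0.0979) and 0.53 without R3 replicate 2 (edgeR adjusted p = 0.0894). In fits of the compared groups alone neither R3 (edgeR adjusted p = 0.079) nor R4 (edgeR adjusted p = 0.06) passed. Without the 5 libraries with a low count of the unplaced rows R3 did not pass either (edgeR adjusted p = 0.149). With the 4 rows summed R3 was higher than T6 by 0.56 (edgeR adjusted p = 0.0312). The R3 call held with RLE factors (edgeR adjusted p = 0.0413), by DESeq2 (adjusted p = 0.0289) and by limma on FPKM (adjusted p = 0.0061).

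Against T0, NIN was lower in R3 by a narrow margin and did not differ detectably in R4 or R5. The log2 fold change was -0.45 ± 0.18 in R3 (edgeR adjusted p = 0.0491, with 20.2% of all models lower). It was no longer called without T0 replicate 3 (edgeR adjusted p = 0.0914), R3 replicate 2 (edgeR adjusted p = 0.0703) or R3 replicate 3 (edgeR adjusted p = 0.0971). The call was also lost without the 5 libraries with a low count of the unplaced rows (edgeR adjusted p = 0.0634) and by limma on FPKM (adjusted p = 0.109). With the 4 rows summed R3 was lower, at -0.55 (edgeR adjusted p = 0.0176). The call held with RLE factors (edgeR adjusted p = 0.0202), by DESeq2 (adjusted p = 0.0139) and in a fit of the 2 groups alone (edgeR adjusted p = 0.0131). R4 changed by -0.32 (95% interval -0.70 to 0.06, edgeR adjusted p = 0.188) and R5 by -0.07 (-0.44 to 0.31, edgeR adjusted p = 0.844). By then 36.2% and 22.8% of all models passed against T0 in either direction.

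**Figure D3:**
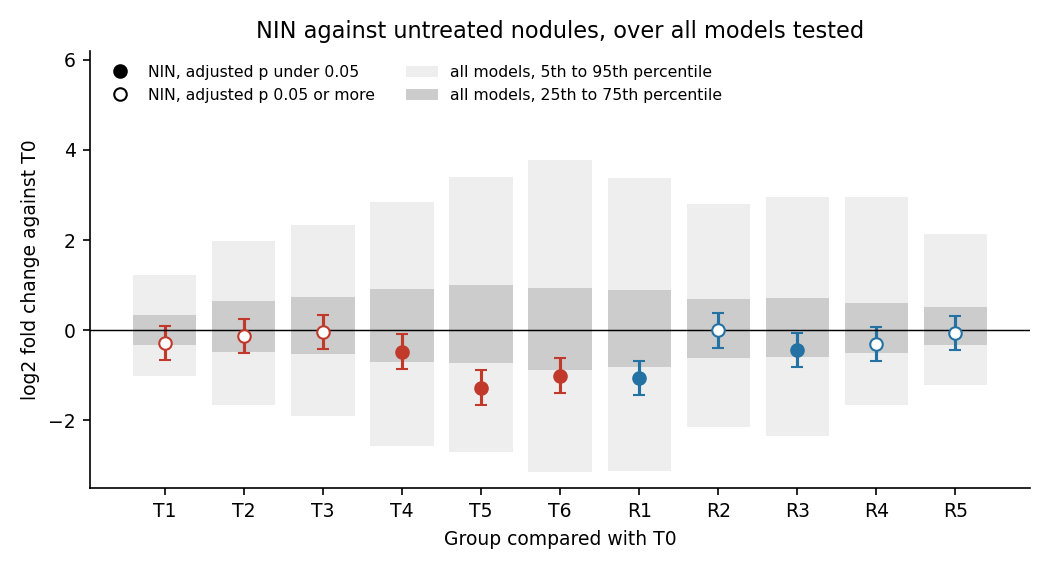
log2 fold change against T0 (vertical axis) of NIN (points with 95% intervals; filled where the edgeR adjusted p is under 0.05) in each later group (horizontal axis), over the 5th to 95th (light) and 25th to 75th (dark) percentiles of all 50475 models. NIN is below the dark band in T5, T6 and R1, at -1.27, -1.01 and -1.06, and lies within it on the other days.

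Ordered by mean CPM, the 12 groups ran from T0 (95.1 CPM) through R2 (94.6), T3 (93.0), R5 (90.8), T2 (87.1), T1 (78.5), R4 (76.3), R3 (69.7), T4 (68.4), T6 (47.2) and R1 (45.7) to T5 (39.3 CPM), a range of 2.42-fold. The order differed in deposited FPKM, where the T0 mean of 32.4 was below those of T3 (36.6), R2 (33.3) and T2 (32.7). The pairs next to each other were chosen by the same CPM means. Small differences between them thus follow from the ordering, and the values are a description. Of the 11 pairs, 10 did not pass (edgeR adjusted p of 0.515 or more). T4 and T6 did, with T4 higher by 0.53 ± 0.19 on the log2 scale (edgeR adjusted p = 0.0327, with 12.4% of all models higher). That call was lost when some single libraries were left out, which also leaves fewer libraries in a group. The difference was 0.56 without T4 replicate 2 (edgeR adjusted p = 0.0555) and 0.57 without T6 replicate 3 (edgeR adjusted p = 0.055). It shrank to 0.38 without T4 replicate 3 (edgeR adjusted p = 0.202) and 0.39 without T6 replicate 2 (edgeR adjusted p = 0.163). The call was also lost without the 5 libraries with a low count of the unplaced rows (edgeR adjusted p = 0.0791). In a fit of T4 and T6 alone it was lost as well (edgeR adjusted p = 0.0765). With the 4 rows summed T4 was higher by 0.60 (edgeR adjusted p = 0.0195). The call held with RLE factors (edgeR adjusted p = 0.0398), by DESeq2 (adjusted p = 0.029) and by limma on FPKM (adjusted p = 0.0026). The coefficient of variation within groups lay between 6.13% in T5 and 27.9% in T6. On the log2(CPM + 1) scale the pooled SD within groups was 0.23 for NIN, beside a median of 0.21 over the 33591 models that averaged 1 CPM or more. The range of its group means was 1.25 on this scale, beside a median of 1.09, so in both respects NIN was near the middle of the transcriptome.

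A fall on day 5 joined to a return on removal day 2 was not peculiar to NIN. Both steps are free of shared libraries, and they were set side by side after the values had been seen. Of the 2377 models lower in T5 than in T4, 829 were higher in R2 than in R1, which is 34.9% of the former and 23.8% of the 3482 models that were higher in R2. Over all tested models 6.90% were higher in R2 than in R1.

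The models most like NIN were sought by the Pearson correlation of log2(mean CPM + 1) over the 12 groups, among 33590 models that averaged 1 CPM or more, and are a description with no test. The highest were Lj2g3v3373100.1 (r = 1.00) and Lj0g3v0358669.1 (r = 0.998), whose counts follow the NIN count as described above, so that they add no independent likeness. Leaving out the 3 rows whose counts follow that of NIN, 44 models had r above 0.9, and 20 had r below -0.9. The median over all models was -0.06.

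The next models from other loci, named after the values had been seen, were Lj3g3v0822530.2 (r = 0.957) and Lj5g3v0723380.1 (r = 0.945). Lj3g3v0822530.2, which has the same counts as 1 other row, had 30.7 ± 1.33 CPM in T0, 5.62 ± 1.23 CPM in T6 and 26.8 ± 2.83 CPM in R2 (SD, n = 3). It was already at 18.0 ± 4.59 CPM in T1, with its libraries at 13.6 to 22.7 CPM below those of T0 at 29.1 to 31.6 CPM, whereas the NIN libraries of T1 and T0 overlapped. Lj5g3v0723380.1 was at 10.1 ± 0.914 CPM in T0, 3.62 ± 0.433 CPM in T5, 8.99 ± 1.43 CPM in R2 and 10.2 ± 0.89 CPM in R5. By Spearman's rho over the 12 groups Lj3g3v0822530.2 ranked 9 and Lj5g3v0723380.1 ranked 55 among the 33590 models, beside 4 and 6 by Pearson's r, the rows that follow the NIN count included.

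By Pearson's r the most opposite models were Lj0g3v0197279.1 (r = -0.947) and Lj2g3v1378960.1 (r = -0.939). They were not the most opposite by every measure: counted from the bottom they ranked 4 (r = -0.856) and 6 (r = -0.855) over the 36 libraries, and 55 and 11 by Spearman's rho over the 12 groups. Lj2g3v1378960.1 was at 55.8 ± 13.4 CPM in T0, 60.8 ± 4.23 CPM in T3, 104.2 ± 5.68 CPM in T4, 177 ± 7.66 CPM in T5 and 137 ± 2.28 CPM in T6. It was back at 75.5 ± 4.54 CPM in R2 and 59.6 ± 9.89 CPM in R5, and its 3 highest group means were those of T5, T6 and R1 (112 ± 15.4 CPM), the groups with the 3 lowest means of NIN. Lj0g3v0197279.1 was a rare transcript, at 0.874 ± 0.255 CPM in T0 and 5.72 ± 2.12 CPM in T5. The files and the gene table used here give none of these IDs a name, and no role is given to them.

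**Figure D4:**
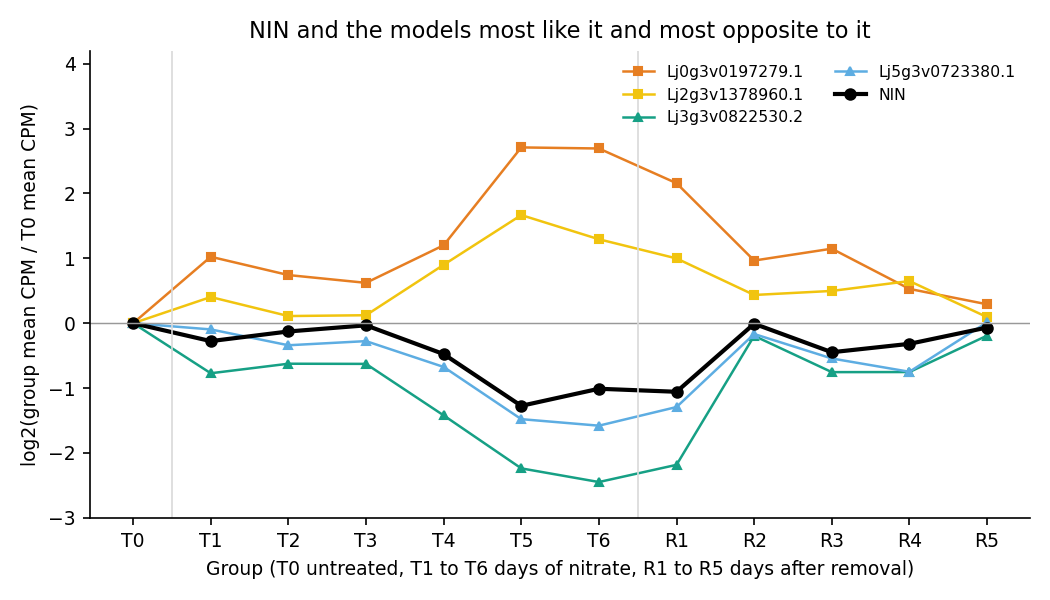
log2 ratio of the group mean CPM to the T0 mean (vertical axis) over the 12 groups (horizontal axis) for NIN (black), Lj3g3v0822530.2 and Lj5g3v0723380.1 (triangles, most like it by Pearson's r apart from rows that follow its count) and Lj0g3v0197279.1 and Lj2g3v1378960.1 (squares, most opposite by Pearson's r). NIN changes little to T3, is lowest in T5, and is back near 0 in R2, while Lj2g3v1378960.1 is highest in T5 at 177 CPM beside 55.8 CPM in T0.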

How the data were processed

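The submitters' processing notes name fastp 0.22.0, HISAT2 and featureCounts. Not given in the sources used here are the genome build, the annotation, the strand setting and how multiply mapped reads were handled. What the authors deposited is a table of estimated counts, with 49.6% of values not whole (tolerance 0.001), and one of FPKM values. RNA came from a TransZol Plant kit and libraries from NEBNext Ultra II reagents, per the labels.

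Rounded counts entered 1 fit of all 36 libraries by group, with TMM factors, filterByExpr (50475 models kept) and edgeR's quasi-likelihood test (edgeR 4.0.16, R 4.3.3). Library totals were 34194054 to 45795038 and TMM factors 0.81 to 1.21. The adjusted p is Benjamini-Hochberg over all models tested, with a threshold of 0.05. SE is the absolute log2 fold change over the square root of F. The edgeR procedure was checked on simulated data in which few models changed. Detection was required there only of changes larger than those of NIN. The check therefore does not show how often changes of the size seen in NIN are found. The length of a model was derived from its deposited count and FPKM values.

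Alternatives were RLE factors, no filter, DESeq2 1.42.0, limma 3.58.1 on log2(FPKM + 1), fits of 2 groups alone, a replicate block, sums by locus and leaving out each library. For the changes per day they were only RLE factors, the replicate block and leaving out all libraries of a replicate number. The sum of 4 rows, the leaving out of 5 libraries (copy ratio under 0.95) and 2 further models like NIN were chosen after seeing the data. The rule for the named models was the 2 highest and the 2 lowest correlations with NIN over group means. The gene and the tests were chosen with earlier results of these data known. Lists of nodulation genes and of infected-cell markers (leghaemoglobins among them) were not analysed here, since 0 genes of a RefSeq table of assembly LjGifu_v1.2 carry an ID of these files. For the same reason the labelled tissue was not checked against markers, and no sequence is shown.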

Additional observations from a re-analysis of the deposited data

How the results depend on the processing

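Over the comparisons of NIN between groups and its changes per day, 34 results in all, 431 of 490 values under an alternative kept the direction and the side of the threshold. RLE factors changed none of them. No filter, DESeq2 and sums by locus changed none of the comparisons between groups, and they were not run on the changes per day. The calls of T5, T6 and R1 against T0, T5 against T4, R2 against R1, and R2 and R5 against T6 held under every alternative run, as did the change per nitrate day.

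The replicate numbers did not pair the libraries: deviations from the group mean of libraries with the same number had correlations of -0.32 to 0.31 over 198 pairs (mean -0.01), and 7 of 36 libraries correlated best with their own number. With the replicate block, the call of R3 against T0 was lost (-0.44 on the log2 scale, edgeR adjusted p = 0.0588) and no other call changed. Limma on FPKM lost T4 (-0.35) and R3 (-0.41) against T0. It turned 9 comparisons that had passed in neither fit: T2 (0.014), T3 (0.17), R2 (0.035) and R5 (0.0037) against T0, R1 against T6 (0.065), T6 against T5 (-0.014), R2 against T3 (-0.13), R5 against T2 (-0.011) and R3 against T4 (-0.066). Fits of 2 groups alone lost R3 (0.57), R4 (0.74) and T4 (0.54) against T6 and turned R2 against T3 (-0.0062). Without the 5 libraries with a low copy ratio, R3 against T0 (-0.52), R3 against T6 (0.51) and T4 against T6 (0.54) were lost, and R2 against T3 (-0.11) and R3 against T4 (-0.025) turned. With 4 rows summed, these turned too (-0.043 and -0.032). Fewer libraries enter some of these fits, and otherwise the cause was not tested.

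Leaving out 1 library at a time gave -0.66 to -0.38 for T4 against T0 and -0.58 to -0.44 for R3 against T0. It gave 0.39 to 0.83 for R3 against T6 and 0.38 to 0.81 for T4 against T6. Each of these kept its direction, and its call was lost in some of these fits. Comparisons that had not passed turned within -0.21 to 0.060 (T3 against T0), -0.14 to 0.070 (R2 against T0), -0.24 to 0.20 (R1 against T6), -0.032 to 0.20 (T3 against T2), -0.040 to 0.31 (R4 against R3), -0.11 to 0.12 (R2 against T3), -0.097 to 0.13 (T3 against R5), -0.037 to 0.17 (R5 against T2), -0.066 to 0.21 (T1 against R4) and -0.071 to 0.16 (R3 against T4).

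Among 9 comparisons for which it was counted, the number of all models that passed moved by over 1.5 times in 4. R1 against T6 went from 419 to between 16 (without R1 replicate 2) and 1000 (2 groups alone), T1 against T0 from 4184 to as few as 2050, T5 against T4 from 6022 to as few as 3341, and R2 against R1 from 6125 to as few as 3776.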
